A study of Mus musculus with 10 samples.

Results

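Accessibility was described at 9 genes of the BMP and TGF-beta pathways in neural stem cell cultures from the adult mouse subependymal zone (SEZ), a neurogenic niche of the brain. The genes were Bmp4, Tgfb2, Bmpr1a, Bmpr1b, Tgfbr1, Smad1, Smad3, Smad6 and Smad7, 9 of 21951 protein-coding genes in the annotation. A peak was assigned to a gene when its summit lay in the gene body or within 50 kb of it. ATAC-seq peaks, which mark DNA open to a transposase, were merged over libraries into regions, and 119 of 99231 regions belonged to the 9 genes.

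Cells came from 10-week-old mice. Wild-type (WT) cultures were compared with cultures from Cdkn1b mutant mice (p27KO), which lack the cyclin-dependent kinase inhibitor p27 and were on the C57BL/6 J background. Proliferating cells (PRO) were neurospheres in medium containing EGF at 20 ng/ml and FGF at 10 ng/ml, for 3 days in vitro according to the labels, although the paper's results give a longer culture time. Differentiating cells (DIFF), taken at the onset of the process, had spent 2 days on Matrigel with FGF, followed by 24 h in 2% serum without mitogens. The substrate, the serum and the mitogens changed together, so their parts in a change between PRO and DIFF cannot be told apart. Each library came from 50000 cells, with 3 libraries per condition in WT and 2 in p27KO. Whether replicates came from separate mice is not stated in the labels, and p-values measure the spread between these libraries. In a bulk library, a change in the share of cells with an open region and a change within each cell cannot be told apart.

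The peak lists held between 57534 and 91801 peaks, and the number of reads behind them is unknown. Between 83 and 103 peaks of a list, or 0.11% to 0.144% of it, belonged to the 9 genes. WT DIFF replicate 3 stood apart from the other WT DIFF libraries with 88738 peaks. A peak at the start site of Cdkn1b was found in 6 of 6 WT and 0 of 4 p27KO libraries, as the titles state, although a further label of the mutant libraries reads WT. The start sites of the Y-linked genes Ddx3y, Eif2s3y, Uty and Kdm5d also had peaks in 6 of 6 WT and 0 of 4 p27KO libraries, so genotype and the sex of the mice cannot be told apart. All 8 marker genes of neural stem and progenitor cells had a promoter peak in all 10 libraries, as did the astrocyte markers Gfap, Aqp4 and Aldh1l1. Markers of other cell types also had promoter peaks. Of the microglial genes, P2ry12 and Aif1 had one in all 10 libraries, Tmem119 in 9 and Cx3cr1 in 0. Of the endothelial genes, Cldn5 and Cdh5 had one in 2 libraries each and Pecam1 in 0, and of the pericyte and fibroblast genes Col1a1 had one in all 10, Pdgfrb in 5 and Dcn in 3. The neuronal genes Syt1 and Snap25 had one in all 10 libraries, Rbfox3 in 8 and Dcx in 1, the oligodendrocyte genes Mbp in all 10 and Mog in 1, and the ependymal genes Foxj1 in all 10 and Ccdc153 in 6. The part of such cells in the results was not tested.

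BMP and TGF-beta ligands bind pairs of type I and type II receptor kinases. The type I receptor then phosphorylates receptor SMADs, chiefly SMAD1, SMAD5 and SMAD9 for BMPs and SMAD2 and SMAD3 for TGF-beta, which enter the nucleus with SMAD4. SMAD6 and SMAD7 are inhibitory SMADs that are themselves induced by the pathway and block it. In the SEZ, BMP signals favour quiescence and astrocytic fate, and TGF-beta restrains proliferation of progenitors.

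Regions are named by gene and by the distance of the summit to the nearest annotated start site of that gene, with negative values upstream. A start site internal to a gene counted, so a negative value can lie within the gene. Fold enrichment is the signal at a summit divided by the background around it. For tests, the fold enrichment of a region was ranked within each list and turned into a normal score, and regions without a peak shared the lowest ranks. A change is a difference of mean normal scores, DIFF minus PRO, with its standard error (SE), and was called at an adjusted p under 0.05 (limma, Benjamini-Hochberg over all 70627 regions in which 5 or more libraries had a peak). Of the 119 regions, 90 were tested and 47 had a peak in all 10 libraries, while 29 with a peak in 2 to 4 libraries were not tested.

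For 4 of the genes, the region called in both genotypes with the lowest p-value in WT is shown first as sequence. The p-value served only to choose the regions. The Smad6 region was tested only because of its peaks in the DIFF libraries, so its p-value lends no support to a change. Each sequence is the plus strand of GRCm38 within 100 bp of the summit, read from the reference genome. Capitals mark the letters of the motifs searched. The Smad3 +146.8 kb region, which fell at DIFF, lies at chr9:63611045-63611245 in an intron of Aagab, the gene next to Smad3. The Smad6 +23.7 kb region, which had peaks in the DIFF libraries and none in the PRO libraries, lies at chr9:63998199-63998399 in an intron of Smad6. The Bmpr1a +6.6 kb region, which rose, lies at chr14:34453862-34454062 in an intron of Bmpr1a. The Bmpr1b +10.1 kb region, which fell, lies at chr3:141921280-141921480 in an intron of Bmpr1b.
Smad3 +146.8 kb: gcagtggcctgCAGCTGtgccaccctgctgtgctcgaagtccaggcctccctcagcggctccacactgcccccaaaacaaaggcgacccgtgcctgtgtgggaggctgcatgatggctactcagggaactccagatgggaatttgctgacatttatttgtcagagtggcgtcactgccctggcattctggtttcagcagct
Smad6 +23.7 kb: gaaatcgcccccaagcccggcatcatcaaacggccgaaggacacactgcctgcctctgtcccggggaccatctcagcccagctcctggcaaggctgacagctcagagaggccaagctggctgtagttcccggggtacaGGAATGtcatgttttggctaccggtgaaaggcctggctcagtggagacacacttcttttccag
Bmpr1a +6.6 kb: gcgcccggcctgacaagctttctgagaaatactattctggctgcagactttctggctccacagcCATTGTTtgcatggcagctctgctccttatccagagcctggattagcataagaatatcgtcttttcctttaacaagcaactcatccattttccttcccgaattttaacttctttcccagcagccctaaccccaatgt
Bmpr1b +10.1 kb: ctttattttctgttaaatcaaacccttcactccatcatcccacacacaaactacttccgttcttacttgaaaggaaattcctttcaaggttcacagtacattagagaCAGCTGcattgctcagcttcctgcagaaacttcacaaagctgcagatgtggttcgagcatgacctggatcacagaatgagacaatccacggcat

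The Smad3 and Bmpr1b windows each held CAGCTG, the E-box read by many basic helix-loop-helix factors, centred at −86 and 10 bp from the summit on the plus strand. CATTGTT, a SOX motif, lay in the Bmpr1a window, and GGAATG, the reverse complement of the TEAD motif CATTCC, in the Smad6 window. On either strand, windows of the same length held CAGCTG in 21.0%, CATTGTT in 3.52% and CATTCC in 14.7% of 98991 regions on the main chromosomes. None of the 4 windows held the AP-1 motif (TGACTCA or TGAGTCA), the NFI half-site TTGGCA, the SMAD palindrome GTCTAGAC or GGCGCC, the core of a BMP response element. A match is a description of letters and not of binding.

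In WT, 13 of the 90 tested regions fell and 11 rose at DIFF, where 10.1% of all tested regions fell and 9.15% rose. In p27KO, 8 fell and 8 rose, against 6.48% and 5.83% of all tested regions. The shares of the 9 genes were thus 14.4% and 12.2% in WT and 8.89% in each direction in p27KO, a few points from the background and not tested against it. The median change over the 90 regions was −0.0007 in WT and 0.0319 in p27KO, beside 0.0344 and 0.0425 over all tested regions. Calls in both genotypes were made at 6 falling regions, 46.2% of the WT and 75% of the p27KO calls, and at 8 rising regions, 72.7% and 100%. Over all tested regions, 5.21% were called lower in both genotypes, 51.8% of the WT and 80.3% of the p27KO calls, and 4.63% were called higher in both, 50.6% and 79.4%. Among the 90 regions the genotypes shared 14 regions called in the same direction, out of 26 called in at least 1 of them. Of the 14, Smad3 +144.6 kb, Smad6 +23.7 kb, +54.2 kb and +56.2 kb and Smad7 −47.7 kb and +5.8 kb had peaks in only 1 condition. Such a region was tested only with a peak in all 5 libraries of that condition, so the rule itself made the genotypes share it.

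**Figure D1:**
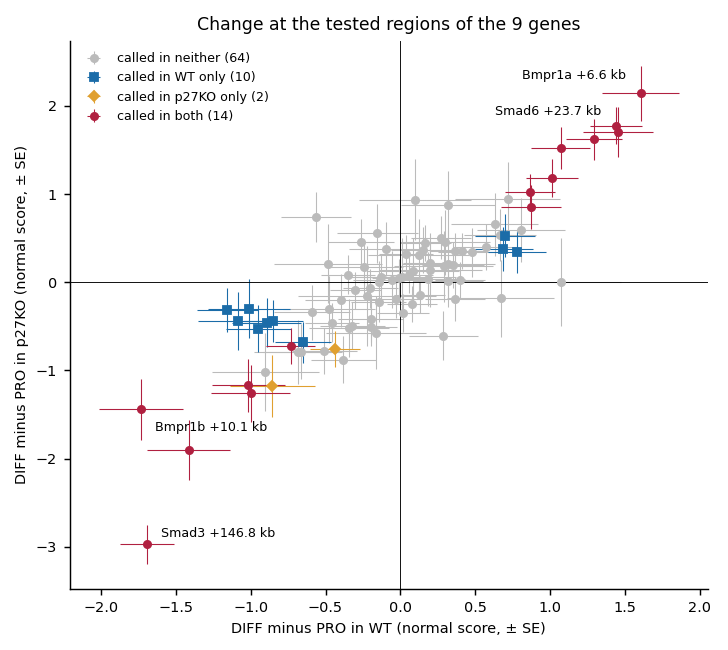
Change in normal score from PRO to DIFF at each of the 90 tested regions, in WT on the x axis and in p27KO on the y axis, with the SE of each as bars. The 14 regions called in both genotypes lie at the lower left and the upper right, with Smad3 +146.8 kb lowest in p27KO at −2.97.

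By gene, the 5 called regions of Smad6 were higher at DIFF and the called regions of Smad1 and Tgfb2 lower, while Smad3, Smad7, Bmpr1a and Bmpr1b had called regions in both directions, and Bmp4 and Tgfbr1 had none. Of the 24 WT calls, 14 held in every alternative setting in which the region was tested, and 6 of the 16 p27KO calls did. Between 12 and 19 settings could be fitted for each call that held. Bmpr1a +6.6 kb, Smad3 +146.8 kb and Smad6 −45.0 kb, which had peaks in both conditions, held in both genotypes. So did Smad3 +144.6 kb, Smad6 +23.7 kb and Smad6 +56.2 kb, but their peaks were those of the 5 DIFF libraries, so the filter dropped them in every setting without a DIFF library and their holding says little. For 8 tested regions the peaks were exactly those of the 5 libraries of 1 condition, and 7 of them were called. Such a region passed the filter only through the condition where it was high, so the counts above describe the tested regions and not the genes as a whole. These 8 regions are described by their peaks, with no test.

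Bmp4, which encodes a BMP ligand, lies on chromosome 14 at 46383520 to 46390669 and had no peak at its start site. Its nearest region, Bmp4 +1.7 kb in an intron, had a fold enrichment of 3.66, 3.62 and 3.83 in WT PRO and 3.16, no peak and 4.35 in WT DIFF. In p27KO it was 4.51 and 3.90 in PRO and 4.63 and 4.02 in DIFF. The conditions overlapped in both genotypes, with a change of 0.15 ± 0.21 (SE) in WT (limma, adjusted p = 0.674) and 0.36 ± 0.26 in p27KO (adjusted p = 0.422). The second Bmp4 region, +3.1 kb, had 8.62, 8.59 and 7.35 in WT PRO and 4.90, 6.07 and 5.42 in WT DIFF. In p27KO it had 7.32 and 10.0 in PRO and 5.11 and 5.52 in DIFF. Every DIFF library lay below every PRO library, but the change in normal score was not called (−0.32 ± 0.22 in WT, limma, adjusted p = 0.344, and −0.49 ± 0.27 in p27KO, adjusted p = 0.28).

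Tgfb2, a TGF-beta ligand, lies on chromosome 1 at 186622792 to 186705989. Its start-site region, Tgfb2 +254 bp, had a fold enrichment of 6.70, 7.81 and 6.73 in WT PRO and 4.37, 5.52 and 6.13 in WT DIFF. In p27KO it was 10.9 and 9.55 in PRO and 7.72 and 7.84 in DIFF. The raw ratios were lower at DIFF in both genotypes without overlap, yet the normal scores changed by only −0.14 ± 0.18 in WT (limma, adjusted p = 0.636) and −0.23 ± 0.22 in p27KO (adjusted p = 0.580). The mean percentile among the peaks of the same list also fell, from 62.09 to 49.55 in WT and from 80.05 to 67.54 in p27KO. The score in the test ranks a region among all tested regions, those without a peak included. Of the 11 tested regions of the gene, 1 was called, Tgfb2 +64.4 kb in an intron. It fell in WT, from 8.59, 9.75 and 9.12 to no peak, 3.47 and 6.35 (−1.09 ± 0.27, adjusted p = 0.0155). Without WT PRO replicate 3 the adjusted p was 0.0505. In p27KO it was 8.28 and 7.10 in PRO and 4.59 and 5.40 in DIFF, apart in the same direction but not called (−0.44 ± 0.33, adjusted p = 0.443).

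Among the type I receptors, Tgfbr1, which carries TGF-beta signals, had a start-site region (Tgfbr1 −108 bp, chromosome 4) with fold enrichments of 11.1 to 14.7 in WT and 13.0 to 17.1 in p27KO libraries. Its 3 tested regions held no call in either genotype. Bmpr1a, a widely expressed BMP receptor on chromosome 14 at 34410734 to 34503341, had 7.17 to 9.35 in WT and 9.41 to 11.1 in p27KO libraries at its start site (Bmpr1a +32 bp, in the first exon). The change there was 0.20 ± 0.18 in WT (limma, adjusted p = 0.493) and 0.22 ± 0.22 in p27KO (adjusted p = 0.593).

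**Figure D2:**
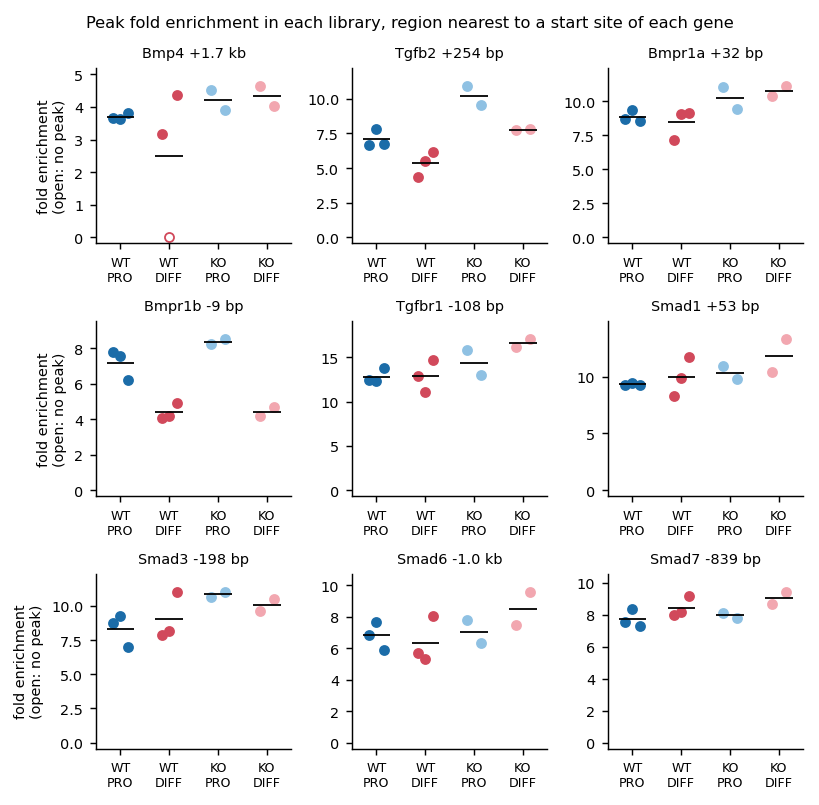
Peak fold enrichment on the y axis in each library for the region nearest to a start site of each of the 9 genes, by group on the x axis (KO is p27KO). Points are libraries, open points at 0 are libraries without a peak, and lines are group means with such libraries as 0. Bmpr1b −9 bp, from 6.23 to 8.52 in PRO and from 4.08 to 4.90 in DIFF, is the one region of these 9 that was called, in p27KO.

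Inside Bmpr1a, neighbouring intronic regions moved in opposite directions. Bmpr1a +6.6 kb rose in WT from 3.32, 4.08 and 3.66 to 7.16, 6.92 and 11.1 (1.60 ± 0.26, limma, adjusted p = 0.0014). In p27KO it rose from no peak and 3.67 to 9.83 and 9.14 (2.14 ± 0.31, adjusted p = 0.00161). Every DIFF library lay above every PRO library, and the call held in every setting. About 1 kb away, Bmpr1a +5.5 kb fell in WT from 5.62, 6.95 and 4.64 to 2.87 in 1 library and no peak in the others (−1.01 ± 0.27, adjusted p = 0.0239). In p27KO it was 4.31 and 3.92 in PRO and no peak and 3.46 in DIFF, which was not called (−0.30 ± 0.33, adjusted p = 0.632). The WT call at +5.5 kb was lost when WT PRO replicate 1 or 2 or WT DIFF replicate 2 or 3 was left out, at an adjusted p of up to 0.0838.

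A region downstream of Bmpr1a rose in both genotypes as well. Bmpr1a +81.6 kb, in an intron of Mmrn2, went from 6.09, 6.57 and 6.49 to 9.21, 8.53 and 10.5 in WT (0.87 ± 0.17, limma, adjusted p = 0.00466). In p27KO it went from 5.24 and 4.41 to 6.93 and 9.72 (1.02 ± 0.21, adjusted p = 0.00893), a call lost without p27KO PRO replicate 2 or p27KO DIFF replicate 2 (adjusted p up to 0.0789). Upstream, Bmpr1a −11.7 kb rose in WT from 4.71, 6.12 and 5.61 to 6.83, 7.64 and 8.04 (0.78 ± 0.19, adjusted p = 0.0165), a call lost without WT PRO replicate 1 or WT DIFF replicate 2 (adjusted p up to 0.0708). Whether such a distant region acts on Bmpr1a or on the gene it lies in was not tested.

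Bmpr1b, a BMP receptor on chromosome 3 at 141837136 to 142169425, had the most tested regions of the set, 21, and several start sites. At the first start site, Bmpr1b +76 bp had 11.9 to 14.0 in PRO and 8.95 to 12.8 in DIFF libraries and was not called. At the internal start nearest the end of the gene, Bmpr1b −9 bp fell in p27KO from 8.25 and 8.52 to 4.15 and 4.71 (−0.75 ± 0.21, limma, adjusted p = 0.0351). In WT the values went from 7.81, 7.56 and 6.23 to 4.08, 4.20 and 4.90, also without overlap, but the change of −0.43 ± 0.17 was not called (adjusted p = 0.0966). The p27KO call was lost when any 1 of the p27KO libraries or WT DIFF replicate 1 was left out, with the replicate block, with only the groups compared and with regions in at least 2 libraries, 8 of 19 settings in all (adjusted p up to 0.175).

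The larger losses at Bmpr1b were intronic. Bmpr1b +10.1 kb fell in WT from 8.84, 11.7 and 10.0 to 3.54, no peak and 2.75 (−1.73 ± 0.28, limma, adjusted p = 0.00155). In p27KO it fell from 9.82 and 9.80 to no peak and 4.83 (−1.44 ± 0.34, adjusted p = 0.0193). The p27KO call was lost without p27KO PRO replicate 1 or 2 or p27KO DIFF replicate 1 (adjusted p up to 0.167), while the WT call held throughout. Bmpr1b −2.4 kb, upstream of another internal start, fell in WT from 7.44, 7.24 and 7.62 to 3.01 in 1 library and no peak in the others (−1.41 ± 0.28, adjusted p = 0.00457). In p27KO it fell from 8.64 and 10.0 to no peak in either DIFF library (−1.91 ± 0.34, adjusted p = 0.00435, and 0.058 without p27KO PRO replicate 2). At both regions every DIFF library thus lay below every PRO library. At −2.4 kb the PRO libraries, where the region was high, met the filter by themselves, so its p-values lend little support to a direction.

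Of the other called Bmpr1b regions, +112.0 kb and +133.5 kb, in introns of the neighbouring gene Unc5c, fell in WT alone by the test (−0.85 ± 0.20, adjusted p = 0.0119, and −1.16 ± 0.21, adjusted p = 0.0027). Their change in p27KO was −0.44 ± 0.24 (limma, adjusted p = 0.289) and −0.31 ± 0.25 (adjusted p = 0.486). The p27KO fold enrichments also fell without overlap. At +112.0 kb they went from 11.0 and 13.8 to 8.76 and 8.74, and at +133.5 kb from 6.71 and 5.39 to 3.82 and 4.83. The difference between genotypes was not called at either region (interaction of 0.41 ± 0.31 and 0.84 ± 0.33, limma, adjusted p = 1 for each). Bmpr1b −1.6 kb rose in WT (0.70 ± 0.20, adjusted p = 0.0318), from 4.94, 5.34 and 4.05 to 6.48, 5.38 and 6.13, and that call was lost in 7 of 19 settings, without any 1 of the WT libraries other than WT DIFF replicate 3 among them (adjusted p up to 0.125).

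The receptor SMADs differed from each other. Smad1, a transducer of BMP signals on chromosome 8, had fold enrichments of 8.34 to 11.7 in WT and 9.82 to 13.3 in p27KO libraries at its start site (Smad1 +53 bp) and no call there. Smad1 +43.5 kb, in an intron, fell in WT from 9.77, 10.1 and 10.8 to 5.76, 2.77 and 6.13 (−0.89 ± 0.23, limma, adjusted p = 0.0196). In p27KO it went from 10.4 and 8.94 to 4.92 and 7.75, apart but not called (−0.46 ± 0.28, adjusted p = 0.349). Without WT PRO replicate 3 or WT DIFF replicate 2 the WT call was lost (adjusted p up to 0.075).

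Smad3, a transducer of TGF-beta signals on chromosome 9 at 63646767 to 63757994, carried the fall with the lowest p-value of the set. Smad3 +146.8 kb had fold enrichments of 13.5, 15.2 and 13.2 in WT PRO and 4.05, 3.93 and 6.11 in WT DIFF (−1.69 ± 0.18, limma, adjusted p = 0.000159). In p27KO they were 20.6 and 18.7 in PRO and 3.82 and 4.26 in DIFF (−2.97 ± 0.22, adjusted p = 0.000284). All 10 libraries had a peak, and no DIFF library reached the level of any PRO library. The fall was larger in p27KO by 1.28 ± 0.28, a difference that was not called (interaction, limma, unadjusted p = 0.000878, adjusted p = 1).

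Close to it, Smad3 +144.6 kb in the same first intron of Aagab showed the opposite presence. It had a peak in 0 of 5 PRO libraries and in all 5 DIFF libraries, at 4.05, 3.01 and 6.78 in WT and 3.82 and 7.38 in p27KO. The region at the start sites of Aagab and Iqch, Smad3 +155.4 kb, was open in all 10 libraries at 11.3 to 17.4 and was not called. Within the Smad3 gene body, Smad3 +51.5 kb and +92.7 kb had between 7.57 and 12.4 in the PRO libraries and between 3.92 and 6.79 in the DIFF libraries. The fall at +92.7 kb was called in WT (−0.73 ± 0.17, limma, adjusted p = 0.01) and in p27KO (−0.72 ± 0.20, adjusted p = 0.0395). The p27KO call at +92.7 kb was lost in 14 of 19 settings, without any 1 library other than WT DIFF replicate 3 among them (adjusted p up to 0.19). The WT call at +51.5 kb (adjusted p = 0.0331) was lost in 8 of 19, leaving out each of WT PRO replicates 1 and 2 and each WT DIFF library among them (adjusted p up to 0.113). Smad3 −45.5 kb had a peak in all 5 PRO and 0 of 5 DIFF libraries. The Smad3 start site (Smad3 −198 bp) had 6.98 to 11.0 in all libraries and changed by 0.40 ± 0.17 in WT (adjusted p = 0.125) and 0.02 ± 0.21 in p27KO (adjusted p = 0.963).

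**Figure D3:**
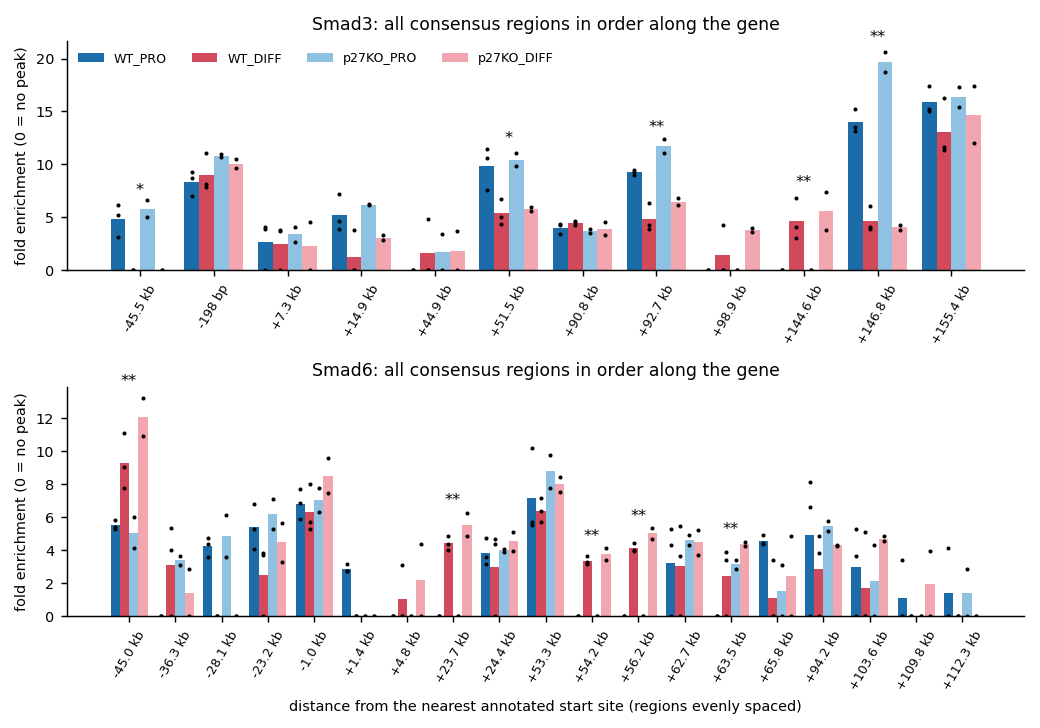
Fold enrichment on the y axis at every region of Smad3 and Smad6, ordered by distance from the nearest start site on the x axis and evenly spaced. Bars are group means with libraries lacking a peak as 0, dots are libraries, 1 star marks a call in 1 genotype and 2 stars a call in both in the same direction. At Smad3, 4 of 5 starred regions are higher in PRO and at Smad6 all 5 are higher in DIFF. Starred regions with peaks in only 1 condition were tested only through that condition, so their stars lend no support to a direction.

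Smad6, an inhibitory SMAD that acts mainly on BMP signals and lies on chromosome 9 at 63953076 to 64022059, had 5 called regions, higher at DIFF and the same in both genotypes, out of 15 tested and 19 in all. For 3 of them no PRO library had a peak. These 3 passed the filter only through DIFF, where they were high, so their calls lend no support to a direction. Smad6 +23.7 kb had a peak in 0 of 5 PRO libraries and in all 5 DIFF libraries, at 4.05, 4.40 and 4.87 in WT and 4.84 and 6.25 in p27KO. Smad6 +54.2 kb and +56.2 kb, also intronic, showed the same presence, with 3.20 to 4.17 and 3.93 to 5.34 in the DIFF libraries. The peaks at these 3 regions were weak, at 3.20 to 6.25.

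Upstream of Smad6, the intergenic region −45.0 kb was open in all 10 libraries and rose in WT from 5.26, 5.44 and 5.86 to 7.80, 9.06 and 11.1 (1.07 ± 0.20, limma, adjusted p = 0.00325). In p27KO it rose from 5.99 and 4.16 to 10.9 and 13.2 (1.52 ± 0.24, adjusted p = 0.0024). The fifth region, Smad6 +63.5 kb, was near detection, with a peak in 0 of 3 WT PRO and at 3.44 and 3.89 in 2 of 3 WT DIFF libraries, so that the WT conditions overlapped. In p27KO it went from 2.87 and 3.43 to 4.24 and 4.53. Its p27KO call (adjusted p = 0.0448) was lost in 12 of 17 settings, without either p27KO PRO, either p27KO DIFF or any WT PRO library among them (adjusted p up to 0.322). The WT call (adjusted p = 0.0113) was lost without WT PRO replicate 1 or 2 (adjusted p up to 0.0642). WT DIFF replicate 2, without a peak, scored −1.07, above the −1.68 to −1.59 of the WT PRO libraries without one. That difference adds to the WT rise. The start-site region of the gene, Smad6 −1.0 kb, had 5.30 to 9.58 over all libraries and was not called. Its changes were also upward, at 0.17 ± 0.17 in WT (limma, adjusted p = 0.537) and 0.44 ± 0.21 in p27KO (adjusted p = 0.202).

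Smad7, an inhibitory SMAD of both branches on chromosome 18 at 75367529 to 75395935, had 8 tested regions, 3 called lower and 1 higher in WT and 2 lower and 0 higher in p27KO, with a median change of −0.31 and 0.22. Smad7 −47.7 kb, intergenic, had 6.37, 3.85 and 5.37 in WT PRO, 5.75 and 6.37 in p27KO PRO and no peak in any DIFF library. Smad7 +5.8 kb, in an intron, had 4.48 to 6.25 in the 5 PRO libraries and no peak in any DIFF library. These 2 regions gave both p27KO calls and were among the WT calls, and they enter the median changes. They passed the filter only through PRO, where they were high, so their calls lend no support to a direction.

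Downstream of the gene, Smad7 +35.9 kb fell in WT from 7.37, 7.25 and 7.57 to no peak, 3.47 and 4.44 (−0.95 ± 0.22, limma, adjusted p = 0.0107), a call that held in every setting. In p27KO it went from 7.66 and 8.13 to 4.59 and 5.11, apart but not called (−0.53 ± 0.27, adjusted p = 0.245). Smad7 +8.7 kb rose in WT by the test (0.69 ± 0.20, adjusted p = 0.0366), but the fold enrichments overlapped, at 4.92, 4.75 and 4.31 in PRO and 4.93, 4.40 and 8.94 in DIFF, and the call was lost in 12 of 19 settings, among them leaving out any 1 WT PRO library, WT DIFF replicate 1 or 3 or either p27KO PRO library (adjusted p up to 0.113). The start-site region, Smad7 −839 bp, had 7.32 to 9.45 over the 10 libraries. It was not called, with changes of 0.41 ± 0.16 in WT (adjusted p = 0.107) and 0.36 ± 0.20 in p27KO (adjusted p = 0.304).

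**Figure D4:**
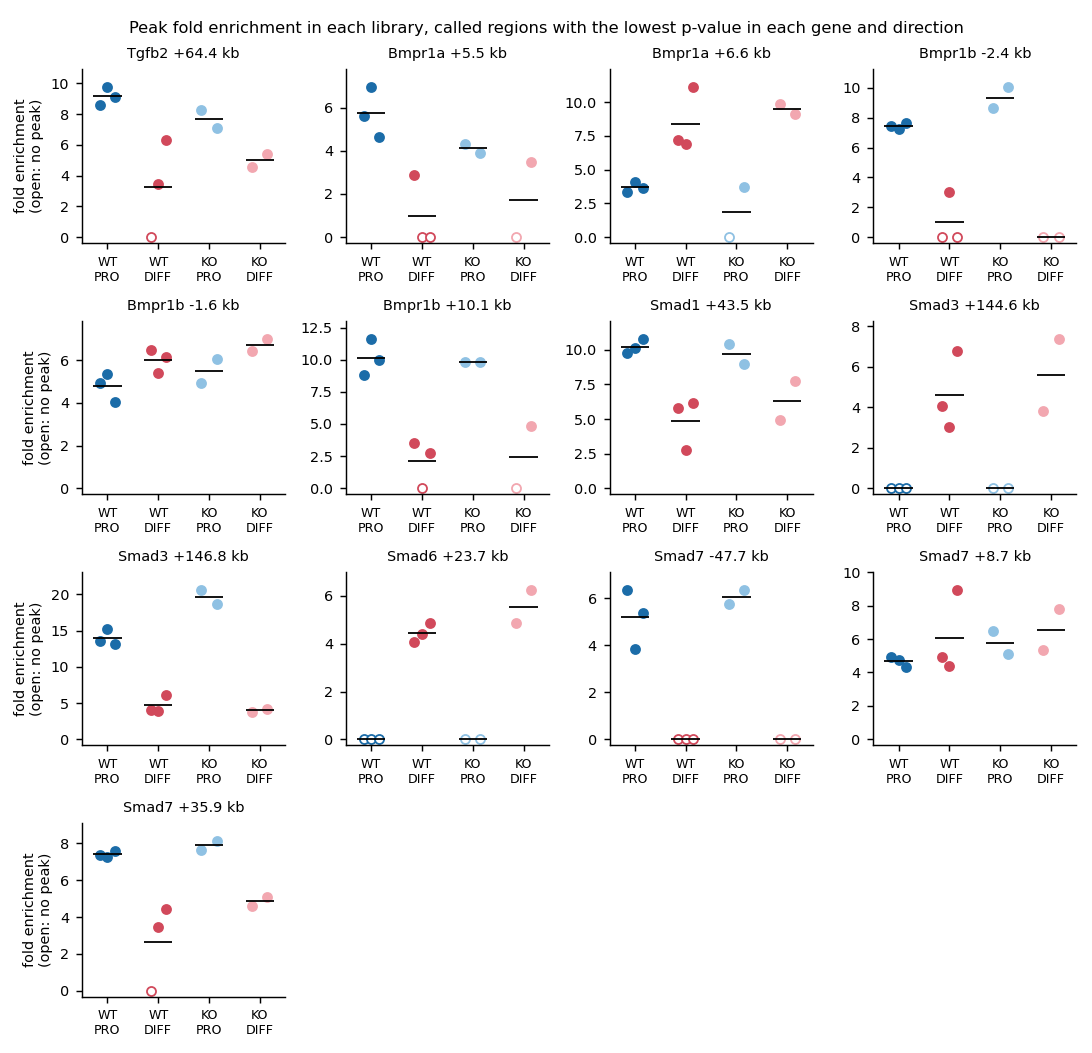
Peak fold enrichment on the y axis in each library at the called region with the lowest p-value of each gene, direction and genotype, by group on the x axis (KO is p27KO). Points, open points and lines are as for the start sites. PRO and DIFF do not overlap within WT in these panels except at Smad7 +8.7 kb, where 1 DIFF library at 8.94 sits above the rest. The regions were picked for low p-values, so the separation lends no support to a change. Smad3 +144.6 kb, Smad6 +23.7 kb and Smad7 −47.7 kb passed the filter only through the condition where they were high.

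Peak presence was read as a simpler measure. A region was taken as closed when all PRO and no DIFF libraries of a genotype had a peak, and as opened in the opposite case. Of the 119 regions, 5 were closed and 5 opened in WT, where 4.32% and 1.86% of all 99231 regions were. In p27KO, 7 were closed and 6 opened, against 10.9% and 3.32%. Since p27KO had 2 libraries per condition and WT 3, the counts of the genotypes are not comparable. Closed in both genotypes were Smad3 −45.5 kb, Smad6 −28.1 kb, Smad7 −47.7 kb and Smad7 +5.8 kb, and opened in both were Smad3 +144.6 kb and Smad6 +23.7 kb, +54.2 kb and +56.2 kb. These were 4 closed and 4 opened of the 119 regions, where 2.61% of all 99231 regions were closed and 0.959% opened in both. The lack of a peak shows only that none was found with the reads at hand.

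Between genotypes, 0 of the 90 regions were called at PRO, where 0.0340% of all tested regions were, and 0 at DIFF, where 0.0156% were (limma). At an unadjusted p under 0.05 there were 4 and 5 regions, beside 5.53% and 4.91% of all tested regions. The lowest p-value at PRO was that of Smad3 +146.8 kb, higher in p27KO at 20.6 and 18.7 than in WT at 13.2 to 15.2 (0.92 ± 0.20, limma, adjusted p = 0.363). Tgfb2 +254 bp was also higher in p27KO PRO, at 10.9 and 9.55 against 6.70 to 7.81 (0.48 ± 0.21, adjusted p = 0.877). The rest of the 4 were lower in p27KO PRO. They were Smad6 +65.8 kb (−1.03 ± 0.26, limma, adjusted p = 0.509) and Bmpr1a +81.6 kb (−0.53 ± 0.19, adjusted p = 0.793). The change with condition differed between genotypes by the test (interaction) at 0 of the 90 regions and at 0.00% of all tested regions, with 4 of the 90 at an unadjusted p under 0.05, beside 3.91% of all tested regions. With 2 or 3 libraries a group, a missing call does not show that the genotypes were alike.

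The promoters of 41 other genes of the pathway were read for comparison, and 39 had a tested region. None passed the test for DIFF minus PRO in WT or in p27KO (limma). At an unadjusted p under 0.05 there were 6 in WT and 5 in p27KO, 15.4% and 12.8% of the 39, beside 14.96% and 9.9% of all promoters. Over 14822 promoters, 1.95% fell and 2.78% rose in WT, and 0.958% fell and 1.23% rose in p27KO. Their median change was 0.13 in WT and 0.20 in p27KO, beside 0.12 and 0.14 over all promoters. By role, the medians in WT were 0.28 for 8 ligands, 0.06 for 8 receptors, 0.27 for 4 SMAD transducers, −0.05 for 6 extracellular antagonists, 0.19 for 5 intracellular inhibitors and 0.13 for 8 target genes. Id1, Id2 and Id3, immediate targets of BMP signals, changed by 0.05 ± 0.17, −0.21 ± 0.20 and 0.12 ± 0.22 in WT, and Id4 by 0.46 ± 0.17 (adjusted p = 0.0881). Tgfbr2, the type II receptor of TGF-beta, had −0.55 ± 0.23 in WT (adjusted p = 0.114) and −0.78 ± 0.28 in p27KO (adjusted p = 0.0952). Among the regions of the 9 genes nearest to a start site, 1 was called, Bmpr1b −9 bp in p27KO. Within 3 kb of a start site, Bmpr1b −2.4 kb was also called lower in both genotypes and Bmpr1b −1.6 kb higher in WT. The PRO libraries alone brought Bmpr1b −2.4 kb into the test.

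The motif letters were counted within 100 bp of the summit in the called regions, as a description of few sequences. Of the 13 regions that fell in WT, 6 held the E-box CAGCTG, 5 the NFI half-site TTGGCA, 4 the TEAD motif and 2 an AP-1 motif. Of the 11 that rose, 0 held CAGCTG or AP-1, 3 held TTGGCA, 3 the TEAD motif and 2 the SOX motif. Over all regions called in WT, CAGCTG was in 34.6% of those that fell and 16.2% of those that rose, and AP-1 in 21.0% and 2.18%. TTGGCA was in 19.6% and 33.3% of them, the TEAD motif in 15.9% and 23.7% and the SOX motif in 4.84% and 3.73%. The SMAD palindrome was in 0 of the 119 regions and in 0.194% of all regions, and GGCGCC was in 11 of the 119, or 9.24%, and in 6.0% of all regions.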

How the data were processed

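ATAC-seq was done by the authors, who clipped adapters with Cutadapt, trimmed with Trimmomatic, mapped with Bowtie2 to GRCm38 and used Picard to mark duplicates. MACS2 then gave narrow peaks for each library (no model, false discovery rate of 0.05). Versions, read shift and extension size are not given in the sources used here. The deposited lists hold 1 fold enrichment, a ratio of summit pileup to local background, per peak, with its −log10 p-value and −log10 q-value and the summit offset. The authors' lists carry no read counts, so depth is unknown, and a longer list can come from more reads alone.

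Merged intervals (overlap of at least 1 bp) with a peak in at least 2 libraries formed regions. Genes and start sites came from GENCODE M21 of the same build, and the authors used M18. For each list, regions were ranked by their highest fold enrichment and given a normal score. Regions without a peak shared the lowest ranks, at a score from −1.91 in the longest list to −1.07 in the shortest, so a loss in a short list counts for less. A region without a peak in any library of a group had a mean score of −1.65 in WT PRO and −1.32 in WT DIFF. In p27KO these means were −1.80 and −1.35. A missing peak thus scored higher at DIFF on average, which adds to a rise and takes from a fall. Regions found in 5 or more lists were fitted with limma 3.58.1 in R 4.3.3, with 4 group means and no replicate block, and adjusted by Benjamini-Hochberg. The fit was tested on simulated data. The study's DiffBind test needs alignments and was not run.

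Named regions were, for each gene, the one nearest to a start site and the called region with the lowest p-value in each direction and genotype. Other called regions were named after their values were seen. The genes, the lists of pathway and marker genes and the tests were chosen with earlier results of these data known, and 1 marker gene is not reported here. Replicate numbers were not used to pair libraries. Between conditions in WT, the correlations of deviations were 0.0328 to 0.0647 for the same number and −0.0508 to −0.0048 for different numbers. In p27KO the same-numbered value was −0.141, where 2 libraries a group mirror each other. These small values do not settle whether the numbers mark pairs.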

Additional observations from a re-analysis of the deposited data

Results flagged for a closer look

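At 1 tested region, Smad6 +65.8 kb in an intron of Smad6, the normal scores of the conditions lay apart in opposite directions in the 2 genotypes. The difference of the changes was 1.30 ± 0.37 (SE, limma, unadjusted p = 0.00466, adjusted p = 1), so it was not called. In WT the fold enrichment was 4.43, 4.91 and 4.39 in PRO and no peak, no peak and 3.39 in DIFF. In p27KO it was 3.11 and no peak in PRO and no peak and 4.88 in DIFF, so the fold enrichments overlapped there. The score of p27KO PRO replicate 1, which had a peak, was −1.36, and that of p27KO DIFF replicate 1, which had none, was −1.26, since the shared lowest ranks of a shorter list lie higher. No group had 4 or more libraries, so single libraries were not tested as outliers.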

How the results depend on the processing

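The number of called regions of the 9 genes was 24 in WT and 16 in p27KO. With regions that had a peak in all 10 libraries it was 10 and 6, of 47 tested. With a window of 10 kb, which held 61 tested regions, WT had 16 calls and p27KO 10. With 1 library left out the WT count ranged from 15 (without WT DIFF replicate 2) to 21, and the p27KO count from 5 (without p27KO DIFF replicate 2) to 13. It was 7, 10, 9, 7 and 6 in p27KO without WT DIFF replicate 1, WT DIFF replicate 2, p27KO PRO replicate 1, p27KO PRO replicate 2 and p27KO DIFF replicate 1. The other planned settings (rank by p-value, regions in at least 2 libraries, equal lists of 57000 peaks, a stricter q-value, windows around summits, only the groups compared, a 100 kb window) gave 21 to 34 calls in WT and 13 to 24 in p27KO. With the replicate block there were 23 and 13 calls, 22 and 13 of them shared with the fit without it, and the samples share only a number. With the numbers of the p27KO DIFF libraries crossed, a choice made after seeing the data, there were 25 and 14. The comparisons between genotypes and the interaction gave 0 calls in every setting run.

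Closed regions in WT numbered 3 with equal lists, 2 within 10 kb and 10 within 100 kb, against 5, and in p27KO 4 and 19 with these windows, against 7. With 1 library left out, closed regions ranged from 6 to 9 in WT and from 9 to 16 in p27KO, and opened regions from 5 to 7 and from 7 to 12. For opened regions no other setting moved the count by over 1.5 times. Changes near 0 turned direction at Bmp4 +1.7 kb in WT (−0.0733 when ranked by p-value and −0.0074 with at least 2 libraries) and at Smad3 −198 bp in p27KO (−0.0033 with all 10 libraries, and from −0.0526, without p27KO PRO replicate 1, to 0.0916 with 1 library left out). The cause was not tested. Unknown depth limits every statement on a missing peak.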

Other observations

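Tgfbr1 −36.8 kb, an intergenic region upstream of the TGF-beta receptor gene, had a fold enrichment of 9.42, 7.94 and 4.15 in WT PRO and 3.54, no peak and 3.81 in WT DIFF. In p27KO it was 5.03 and 8.57 in PRO and 3.57 and no peak in DIFF. Every DIFF library lay below every PRO library, but no change was called (limma, adjusted p = 0.105 in WT and 0.169 in p27KO). This region was chosen after its values were seen.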
